A study of Mus musculus with 6 samples.

Results

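The suppressor of cytokine signaling (SOCS) family comprises 8 mouse genes, *Socs1* to *Socs7* and *Cish*, which were taken by gene symbol from the 55335 gene identifiers of the expression table. All 8 were among the 13367 genes that reached a mean of 0.5 FPKM (fragments normalised for transcript length and for the mapped fragments of the library) over the libraries and were tested. They were measured by bulk RNA-seq in mouse bone marrow-derived macrophages (BMDMs) that had been kept for 24 h with neutrophils taken from the injured spinal cord 3 days post-injury (dpi). The comparison asked how the macrophages differ when the added neutrophils lack *Cd177*, a surface glycoprotein of neutrophils. The WT group held 3 libraries from BMDMs co-cultured with *Cd177* WT neutrophils, and the KO group held 3 libraries from BMDMs co-cultured with *Cd177* KO neutrophils. The BMDMs of both groups came from *Cd177* WT mice and were grown for 7 days with M-CSF, the macrophage growth factor, at 25 ng/ml, so WT and KO name the added neutrophils and not the sequenced cells. All mice were male according to the methods, which give an age of 8 weeks for the purchased C57BL/6 mice. For the *Cd177* KO mice of this co-culture the methods state neither age nor background. The neutrophils were enriched on magnetic columns. After co-culture the BMDMs were recovered by flow sorting as Ly6G-negative cells. Nothing in the labels says that replicates were separate cultures or animals, so p-values measure only the spread between these libraries, which may be technical.

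SOCS proteins are feedback inhibitors of cytokine receptors that signal through Janus kinases (JAKs) and STAT transcription factors. Many of their genes are switched on by the STATs they restrain. Each protein carries an SH2 domain that reads phosphotyrosine and a SOCS box that recruits an elongin and cullin ubiquitin ligase, and SOCS1 and SOCS3 in addition hold a kinase inhibitory region that blocks JAKs. In macrophages SOCS1 is known as a brake on interferon and Toll-like receptor responses, and SOCS3 as a brake on IL-6 signaling through gp130.

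Upstream sequence is shown for *Socs1* and *Socs3*, the members with the largest differences, and a short site for *Cish*, since their start regions hold letters of the kind that STAT dimers or interferon factors can bind. The RefSeq promoter table (GRCm38.p6) matched 4 of the 8 members, *Socs1*, *Socs3*, *Socs4* and *Cish*. Its windows of 250 bases before and 50 bases after each RefSeq start were searched on both strands for TTCNNNGAA and TTCNNNNGAA, the palindromes of a gamma-activated site (GAS), and for GAAANNGAAA, a core of the interferon-stimulated response element (ISRE). Capitals mark the matches, and all sequences run 5′ to 3′ on the strand of the gene. The *Socs1* bases are chr16:10785537-10785786 (minus strand), the *Socs3* bases chr11:117969367-117969616 (minus strand), and the *Cish* bases chr9:107296654-107296683 (plus strand).
Socs1: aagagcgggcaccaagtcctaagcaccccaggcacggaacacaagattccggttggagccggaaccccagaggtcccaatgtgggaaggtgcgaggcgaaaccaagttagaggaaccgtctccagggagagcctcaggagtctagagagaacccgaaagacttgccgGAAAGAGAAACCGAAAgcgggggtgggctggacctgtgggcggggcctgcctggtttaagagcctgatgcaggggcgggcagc
Socs3: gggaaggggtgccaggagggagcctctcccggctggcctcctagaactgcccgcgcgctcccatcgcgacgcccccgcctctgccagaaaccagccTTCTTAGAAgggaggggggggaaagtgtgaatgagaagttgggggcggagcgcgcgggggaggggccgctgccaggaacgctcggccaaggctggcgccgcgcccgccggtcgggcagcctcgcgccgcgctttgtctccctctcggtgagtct
Cish: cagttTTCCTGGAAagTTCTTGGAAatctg
In *Socs1* the ISRE core matched as GAAAGAGAAA, 83 to 74 bases upstream of the start, and as GAAACCGAAA, 77 to 68 bases upstream, and these matches overlap each other. In *Socs3* the GAS letters matched once, as TTCTTAGAA, 154 to 146 bases upstream. In *Cish* they matched as TTCCTGGAA at transcribed bases 1 to 9 and as TTCTTGGAA at transcribed bases 12 to 20. The *Socs4* window held no match to these letters. Of 32851 promoters of 27025 genes in the table, 8.3% held the GAS letters with 3 bases between the arms, 6.95% those with 4 bases, and 3.44% the ISRE core. A match is a description of the letters in the window and was not tested as a binding site. The RefSeq starts used here differ from the outermost starts of GENCODE M21 for *Socs3* and *Cish*.

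The libraries held an implied 17700000 to 20300000 fragments, a figure read from the smallest FPKM steps because the table gives no counts. All 10 macrophage markers were tested, of which 2 fell and 2 rose as deposited (limma adjusted p under 0.05). By this rule 10.5% of all genes tested fell and 27.1% rose, with a median log2 difference, KO minus WT, of 0.19. Each count of markers here is to be read beside these shares. *Cd14*, a co-receptor for lipopolysaccharide, fell from 1010 to 99.4 FPKM (-3.33 on the log2 scale), and *Fcgr1*, a high-affinity Fc receptor, from 121 to 33.8 FPKM (-1.83). *Mertk* rose from 19.3 to 31.9 FPKM (0.72), and *Adgre1* from 241 to 297 FPKM (0.30). The summed level of the 10 macrophage markers, most of which was *Lyz2*, was 6825 to 8181 FPKM in the WT libraries and 7415 to 8119 FPKM in the KO libraries. Summed neutrophil markers were higher in the KO libraries (542 to 556 FPKM) than in the WT libraries (195 to 256 FPKM). Of the 16 neutrophil markers 12 were tested, of which 10 rose and 1 fell, and *Ly6g* was at 0 in every WT library. Summed lymphocyte markers were 2.30 to 3.41 FPKM in the WT libraries and 18.9 to 20.6 FPKM in the KO libraries, with *Cd79a*, *Cd3g*, *Cd8a* and *Nkg7* at 0 in every WT library. Summed neural markers were 15.9 to 18.2 FPKM in the WT libraries and 20.1 to 21.9 FPKM in the KO libraries. Of the 8 neural markers 2 were tested and 1 rose, while *Olig2*, *Snap25* and *Aqp4* were at 0 in all libraries. The 7 dendritic cell markers summed to 0.610 to 1.24 FPKM in WT and 0.314 to 0.664 FPKM in KO, with *Flt3* at 0 in all libraries. *Cd177* itself went against the labels. It read 0.544, 0.309 and 0.521 FPKM in WT replicates 1 to 3 and 1.79, 1.84 and 2.28 FPKM in KO replicates 1 to 3 (log2 difference 1.37, limma adjusted p = 0.000827). Because the gene was deleted in the added cells and not in the BMDMs, its level does not check the sequenced cells, and each direction given here is between libraries as labelled WT and KO. Whether labels were exchanged, which would turn every direction, was not tested. The part that the macrophage, neutrophil, lymphocyte and neural markers or *Cd177* have in the SOCS results was not tested.

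In the libraries labelled KO, 4 of the 8 SOCS members fell, namely *Socs1*, *Socs3*, *Cish* and *Socs2*, and 0 rose (limma on log2(FPKM + 0.5), Benjamini-Hochberg adjusted p under 0.05 over all genes tested). Among all 13367 genes tested, 10.5% fell and 27.1% rose by the same rule. At an unadjusted limma p under 0.05, 1 member was higher in KO, *Socs5*. The median log2 difference, KO minus WT, was -0.35 over the 8 members and 0.19 over all genes tested. Changes are therefore read against a shift of all genes of 0.19, which median-of-ratios scaling brought to -0.00046. As deposited, 72.0% of all called genes were higher in KO, against 49.3% after that scaling. The 4 members that fell kept their call under it. Its factors were 0.913 to 0.936 in the WT libraries and 1.07 to 1.08 in the KO libraries. Dividing by them lowers KO relative to WT, so it could not have turned a lower direction. Under it 2215 of the 13367 genes tested fell and 2156 rose. The 3 libraries of each group did not overlap for the same 4 members, each lower in KO, and for *Socs5*, higher in KO. Such separation was seen for 14.4% of all genes tested in the lower direction and for 37.5% in the higher direction. By the threshold of the methods (fold change above 2 and unadjusted p under 0.05), with the fold taken on FPKM + 0.5, *Socs1* and *Socs3* were lower, as were 4.43% of all genes tested. *Cish* missed it on this scale (-0.83 on the log2 scale) but lay past a fold of 2 with a pseudocount of 0.1 (-1.13) and in raw means.

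**Figure D1:**
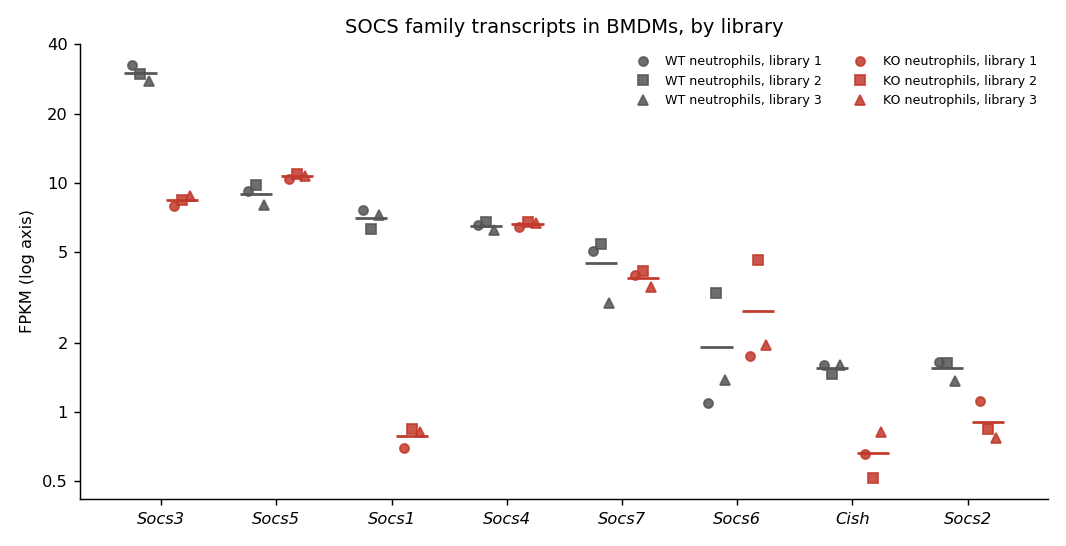
FPKM of each SOCS member (log axis) in the 3 WT and 3 KO libraries, with a point for each library and a short line at the group mean. *Socs1* lay at 6.26 to 7.59 FPKM in WT and at 0.701 to 0.842 FPKM in KO, while *Socs4* overlapped between the groups at 6.25 to 6.73 FPKM.

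*Socs1* and *Socs3* encode the members with a kinase inhibitory region. *Socs1* (ENSMUSG00000038037, GRCm38 chromosome 16, 10782240 to 10785536, minus strand) read 7.59, 6.26 and 7.24 FPKM in WT replicates 1 to 3 and 0.701, 0.842 and 0.819 FPKM in KO replicates 1 to 3. Every KO library lay far below every WT library. The means were 7.03 ± 0.692 FPKM in WT and 0.788 ± 0.0760 FPKM in KO (SD, n = 3 each), an 8.92-fold difference of raw means. On the log2(FPKM + 0.5) scale, which understates the change of low genes, *Socs1* fell by 2.55 (SE 0.12, 95% interval -2.82 to -2.27, limma adjusted p = 1.38e-05). It ranked 122 from the lowest log2 difference of the 13367 genes tested. In bulk libraries fewer cells of a type and less RNA per cell cannot be told apart.

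*Socs3* (ENSMUSG00000053113, chromosome 11, 117966079 to 117970047, minus strand) was the most abundant member in the WT group. It read 32.7, 29.6 and 27.7 FPKM in WT replicates 1 to 3 and 7.94, 8.45 and 8.72 FPKM in KO replicates 1 to 3. The groups were widely separated, and the KO libraries lay within 1 FPKM of each other. The means were 30.0045 ± 2.50 and 8.37 ± 0.393 FPKM, a 3.58-fold difference. *Socs3* fell by 1.78 on the log2 scale (SE 0.093, 95% interval -2.001 to -1.56, limma adjusted p = 2.56e-05) and ranked 247 from the lowest. Scaling and the choice of libraries moved neither call, with log2 differences of -2.71 for *Socs1* and -1.99 for *Socs3* after median-of-ratios scaling.

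*Cish* and *Socs2* encode the members best known as feedback inhibitors of STAT5-activating receptors such as those for growth hormone, erythropoietin and the IL-2 and IL-3 families. *Cish* (ENSMUSG00000032578, chromosome 9, 107296026 to 107302784, plus strand) read 1.60, 1.47 and 1.60 FPKM in WT replicates 1 to 3 and 0.657, 0.516 and 0.821 FPKM in KO replicates 1 to 3. The KO libraries spread more than the WT libraries, yet the groups did not overlap. The means were 1.56 ± 0.0775 and 0.665 ± 0.153 FPKM, a 2.34-fold difference. *Cish* fell by 0.83 on the log2 scale (SE 0.14, 95% interval -1.16 to -0.49, limma adjusted p = 0.00433). The antisense gene *Gm17041* covers 7.46% of the *Cish* exon bases and was at 0 in all libraries, and the pseudogene *Gm17040* on the opposite strand covers 4.07% and reached at most 0.0494 FPKM. Leaving out both libraries numbered 2 gave *Cish* an adjusted p of 0.0535 by limma.

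*Socs2* (ENSMUSG00000020027, chromosome 10, 95385362 to 95417180, minus strand) read 1.66, 1.63 and 1.37 FPKM in WT replicates 1 to 3 and 1.12, 0.845 and 0.770 FPKM in KO replicates 1 to 3. KO replicate 1 came nearest to the WT libraries, of which replicate 3 was the lowest. The means were 1.56 ± 0.160 and 0.911 ± 0.184 FPKM, a 1.71-fold difference. *Socs2* fell by 0.55 on the log2 scale (SE 0.14, 95% interval -0.89 to -0.21, limma adjusted p = 0.0241). The call was lost on leaving out any of 4 libraries, with a limma adjusted p of 0.0791 without WT replicate 1, 0.0715 without WT replicate 2, 0.0815 without KO replicate 2 and 0.0695 without KO replicate 3. It held without WT replicate 3 (limma adjusted p = 0.0210) and without KO replicate 1 (limma adjusted p = 0.0275). The adjusted p was 0.0712 when no filter on low values was applied.

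*Socs4* and *Socs5* encode members with long N-terminal regions that have been tied to the epidermal growth factor receptor. *Socs4* (ENSMUSG00000048379, chromosome 14, 47276931 to 47296102, plus strand) read 6.52, 6.73 and 6.25 FPKM in WT replicates 1 to 3 and 6.39, 6.73 and 6.70 FPKM in KO replicates 1 to 3. The groups overlapped, with a log2 difference of 0.02 (95% interval -0.17 to 0.22, limma adjusted p = 0.856), which turned to -0.18 with median-of-ratios scaling. *Socs5* (ENSMUSG00000037104, chromosome 17, 87107679 to 87137839, plus strand) read 9.21, 9.73 and 7.96 FPKM in WT replicates 1 to 3 and 10.3, 10.9 and 10.7 FPKM in KO replicates 1 to 3. Each KO library lay above each WT library, but the log2 difference of 0.24 (95% interval 0.0063 to 0.48) did not pass (limma adjusted p = 0.0983). It was 0.04 after median-of-ratios scaling.

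*Socs7* encodes an adaptor-binding member known from insulin signaling. *Socs7* (ENSMUSG00000038485, chromosome 11, 97362551 to 97398542, plus strand) read 5.05, 5.43 and 2.99 FPKM in WT replicates 1 to 3 and 3.96, 4.11 and 3.51 FPKM in KO replicates 1 to 3. WT replicate 3 lay below all others and the groups overlapped. The log2 difference was -0.16 (95% interval -0.65 to 0.33, limma adjusted p = 0.582). Without WT replicate 3 it was -0.40, with a limma adjusted p of 0.0229.

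*Socs6* encodes a relative of SOCS7 that has been tied to the KIT and insulin receptors. *Socs6* (ENSMUSG00000056153, chromosome 18, 88665224 to 88927481, minus strand) read 1.10, 3.31 and 1.38 FPKM in WT replicates 1 to 3 and 1.75, 4.59 and 1.96 FPKM in KO replicates 1 to 3. The library numbered 2 was the highest in each group, and the groups overlapped. The means were 1.93 ± 1.20 and 2.77 ± 1.58 FPKM, and the log2 difference of 0.43 (95% interval -0.57 to 1.44) did not pass (limma adjusted p = 0.459). It moved with single libraries, to 0.06 without KO replicate 2 and 0.81 without WT replicate 2, and passed in neither case.

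**Figure D2:**
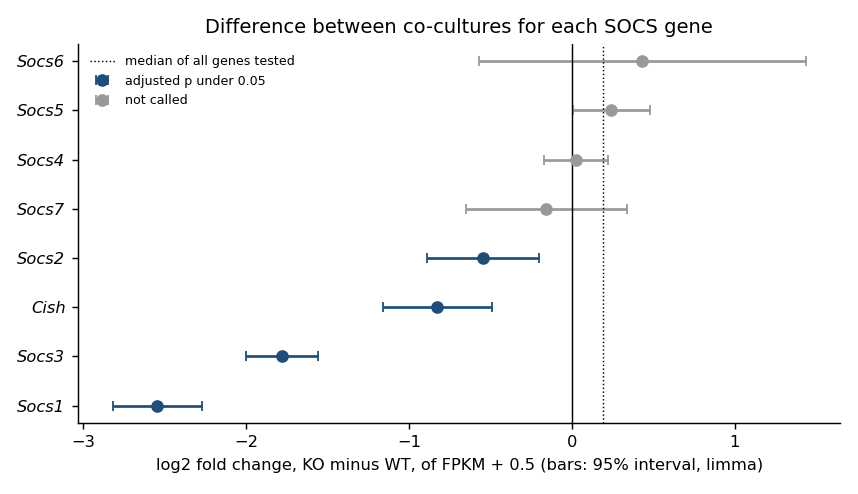
Log2 difference of FPKM + 0.5, KO minus WT, for each SOCS member, with the 95% interval from limma as bars and a dotted line at the median of all genes tested. The interval of *Socs1*, *Socs3*, *Cish* and *Socs2* lies below 0, that of *Socs5* reaches from 0.0063 to 0.48, and those of *Socs4*, *Socs6* and *Socs7* include 0.

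FPKM is per length, so the levels of the members can be ordered within a group. In the WT group *Socs3* was highest, followed by *Socs5*, and then by *Socs1* and *Socs4*, whose ranges overlapped. *Socs7* came next, and its range overlapped that of *Socs6*, which in turn overlapped *Cish*, and *Cish* overlapped *Socs2*. In the KO group *Socs5* was highest, followed by *Socs3*, *Socs4* and *Socs7*, with *Socs7* overlapping *Socs6*, and *Socs2*, *Socs1* and *Cish* lay lowest with overlapping ranges between neighbours. *Socs1* thus stood at place 3 in WT and at place 7 in KO.

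The summed FPKM of the 8 members was 65.4, 64.2 and 56.5 in WT replicates 1 to 3 and 32.9, 37.0 and 34.0 in KO replicates 1 to 3 (means 62.0 ± 4.83 and 34.6 ± 2.15). *Socs3* made up 46.2% to 49.95% of this sum in the WT libraries and 22.8% to 25.6% in the KO libraries. *Socs1* made up 9.75% to 12.8% in WT and 2.13% to 2.41% in KO. The share of *Socs5* was 14.1% to 15.2% in WT and 29.6% to 31.5% in KO, against the small difference in its own level given above.

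**Figure D3:**
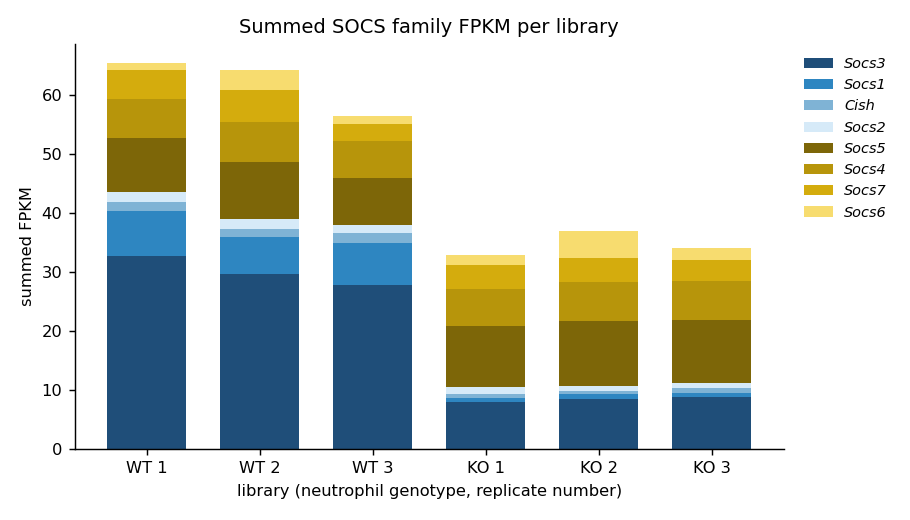
Stacked FPKM of the 8 SOCS members in each library, with the axis from 0. The whole bar is 56.5 to 65.4 FPKM in the WT libraries and 32.9 to 37.0 FPKM in the KO libraries, and the *Socs3* segment takes up much of the difference.

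A ratio of members within a library does not depend on scaling between libraries. The *Socs1* to *Socs3* ratio of raw FPKM was 0.232, 0.211 and 0.261 in WT replicates 1 to 3 and 0.0882, 0.0997 and 0.094 in KO replicates 1 to 3. The groups did not overlap, so *Socs1* was lower in KO relative to *Socs3* in every library. The size of the difference depended on the pseudocount, at -1.18 on the log2 scale of FPKM + 0.1. On the log2 scale of FPKM + 0.5 it was -0.77 (exact permutation p = 0.1, two-sided, the smallest value that 3 against 3 allows). The *Cish* to *Socs2* ratio ran from 0.898 to 1.17 in WT and from 0.587 to 1.07 in KO. These ranges overlapped, with a log2 difference of -0.28 (exact permutation p = 0.3).

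Ratios of a member to a STAT that is known to induce it were chosen after the values were seen and carry no test. *Socs3* to *Stat3* was 1.48 to 1.77 in WT and 0.481 to 0.596 in KO. *Cish* to *Stat5b* was 0.186 to 0.252 in WT and 0.0426 to 0.0725 in KO. Neither ratio overlapped between the groups, and each was lower in every KO library.

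**Figure D4:**
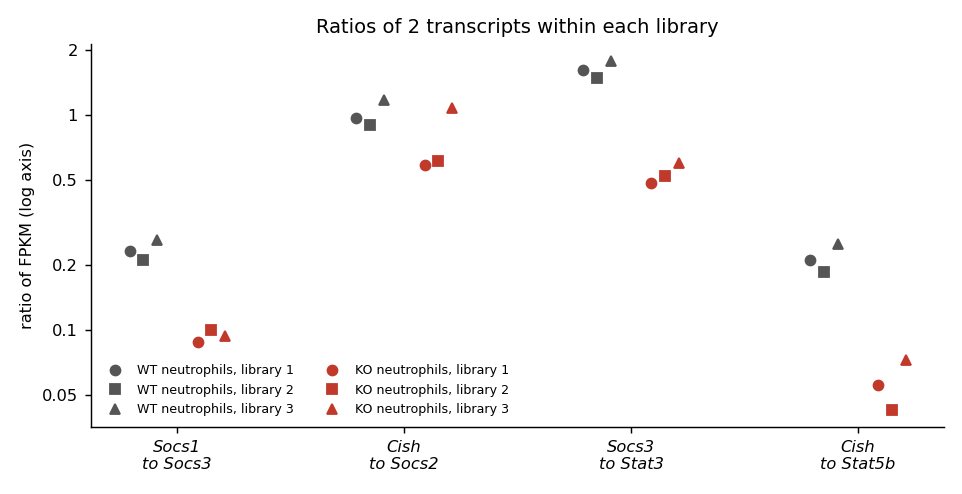
Ratios of raw FPKM within each library (log axis) for *Socs1* to *Socs3*, *Cish* to *Socs2* and the member-to-STAT pairs, with a point for each of the 3 WT and 3 KO libraries. *Socs3* to *Stat3* and *Cish* to *Stat5b* are lower in every KO library, whereas *Cish* to *Socs2* overlaps between the groups.

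The kinases and transcription factors that SOCS proteins restrain moved in both directions. Of the 11 JAK and STAT genes, 3 fell and 6 rose as deposited, beside 10.5% and 27.1% of all genes tested. With median-of-ratios scaling 4 fell and 3 rose, beside 2215 and 2156 of all 13367 genes tested. The median log2 difference of the list as deposited was 0.44, against 0.19 for all genes tested. *Stat2*, a factor of type I interferon signaling, fell from 32.9 ± 10.9 to 4.58 ± 0.620 FPKM (-2.67 on the log2 scale, limma adjusted p = 0.000394). *Jak2*, the kinase of many cytokine receptors that SOCS1 and SOCS3 inhibit, fell from 14.7 ± 1.72 to 9.63 ± 0.326 FPKM (-0.57). *Jak3*, the kinase of the common gamma chain, rose from 3.33 ± 0.555 to 8.33 ± 0.486 FPKM, and *Stat4*, the factor of IL-12 signaling, rose from 0.104 ± 0.106 to 1.15 ± 0.225 FPKM. *Stat5b*, an inducer of *Cish*, rose from 7.26 ± 0.803 to 11.8 ± 0.404 FPKM (0.67, limma adjusted p = 0.00297). *Jak1* (0.45), *Stat5a* (0.44) and *Stat6* (0.44) also rose as deposited, but did not pass after median-of-ratios scaling (limma adjusted p of 0.0775, 0.103 and 0.177). *Stat3*, the factor of gp130 cytokines and an inducer of *Socs3*, was at 18.6 ± 2.51 and 15.8 ± 1.04 FPKM, which did not pass (-0.22, limma adjusted p = 0.197), whereas with that scaling it was lower (-0.43, limma adjusted p = 0.0274). *Tyk2* did not pass either way.

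Among 31 genes for ligands that induce SOCS genes, 13 were tested. Of these, 4 fell and 5 rose (median -0.32), beside 10.5% and 27.1% of all genes tested. The 4 that fell all belong to the gp130 family, of which 7 were tested and 1, *Ebi3*, rose. *Il11* fell from 9.87 to 0.141 FPKM, *Il6* from 4.40 to 0.121 FPKM and *Osm*, the gene for oncostatin M, from 27.9 to 3.66 FPKM. *Ebi3*, a subunit of IL-27 and IL-35, rose from 13.4 to 39.1 FPKM, *Igf1* from 37.5 to 54.4 FPKM and *Csf1*, which encodes M-CSF, from 56.1 to 75.1 FPKM. *Csf1* did not pass after median-of-ratios scaling (limma adjusted p = 0.0995). *Il10*, the 1 gene tested of the IL-10 family ligands, rose as deposited from 0.116 to 1.34 FPKM. The interferon genes *Ifnb1* and *Ifng* were above 0 in WT replicate 3 alone and were not tested.

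Of 37 receptor genes 29 were tested, with 9 lower and 10 higher (median 0.09), beside 10.5% and 27.1% of all genes tested. After median-of-ratios scaling 11 were lower and 7 higher, beside 2215 and 2156 of all 13367 genes tested. The receptors of the common beta and gamma chains held 8 of the 9 that fell, out of 11 tested. Of the gp130 family receptors 5 were tested, of which 3 rose and 1 fell as deposited. The 2 IL-10 family receptors rose as deposited. *Il7r*, the IL-7 receptor alpha chain, fell from 103 to 37.3 FPKM (-1.45). The beta chain genes *Csf2rb* (44.9 to 15.1 FPKM) and *Csf2rb2* (88.6 to 31.8 FPKM) also fell, but they are near-identical copies whose reads may be split between them, so each value is uncertain. *Ifngr1*, the ligand-binding interferon-gamma receptor chain, rose from 13.3 to 54.1 FPKM. *Epor*, the erythropoietin receptor, rose from 0.249 to 2.03 FPKM, and *Csf3r*, the granulocyte colony-stimulating factor receptor to which SOCS3 docks and which neutrophils also express, rose from 7.34 to 18.0 FPKM beside the higher neutrophil markers given above.

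Of 16 other negative regulators of the pathway 2 fell and 6 rose, beside 10.5% and 27.1% of all genes tested, and their median of 0.19 was that of all genes tested. *Usp18*, an inhibitor of the type I interferon receptor that is itself induced by interferon, fell from 31.6 ± 2.35 to 1.05 ± 0.161 FPKM (-4.37, limma adjusted p = 1.86e-06). *Tnfaip3*, the ubiquitin-editing enzyme A20, fell from 15.8 to 7.16 FPKM. *Pdlim2*, a ubiquitin ligase for STATs, rose from 1.35 to 4.23 FPKM, *Sh2b3*, the adaptor LNK, from 13.2 to 22.1 FPKM, and the phosphatase gene *Ptprc* from 12.2 to 20.2 FPKM. As deposited, none of the 8 genes for the SOCS box ligase passed in either direction (median -0.0035), among them *Elob*, *Eloc* and *Cul5*, at 5.13 ± 0.258 and 4.97 ± 0.557 FPKM for *Cul5* (0 of 8 by limma at an adjusted p under 0.05 and 0 at an unadjusted p under 0.05). With median-of-ratios scaling 1 of the 8 fell, beside 2215 of all 13367 genes tested.

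STAT target genes, a list chosen with earlier results of these data known, fell more often than they rose. Of 24 tested 13 were lower and 5 higher (median -0.47), beside 10.5% and 27.1% of all genes tested. Among those that fell were *Cxcl9* (52.1 FPKM in WT, listed at 0 in 2 of 3 KO libraries) and *Cxcl10* (22.6 to 0.215 FPKM), chemokines of interferon responses. Of the STAT3 targets 3 of 7 fell and 1 rose, *Cebpd* (4.79 to 14.5 FPKM). Of the STAT5 targets 4 of 7 fell and 1 rose. Of the STAT6 targets tested, 3 of 4 rose, among them *Mrc1*, the mannose receptor (28.0 to 221 FPKM), and *Pparg*, a lipid-sensing nuclear receptor (2.40 to 13.4 FPKM), while *Arg1*, the arginase of alternatively activated macrophages, fell from 166 to 0.359 FPKM.

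**Figure D5:**
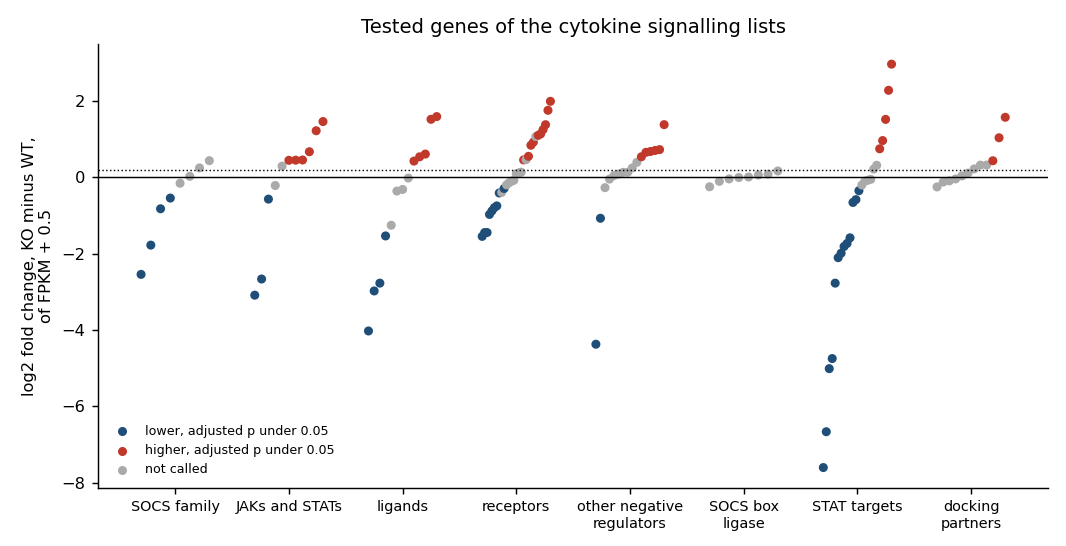
Log2 difference of FPKM + 0.5, KO minus WT, of each tested gene in the SOCS family and the pathway lists, a point a gene, in blue where it fell, red where it rose and grey where it did not pass, with a dotted line at the median of all genes tested. The SOCS median is -0.35, the STAT target median -0.47 and the ligase median -0.0035, beside 0.19 for all genes tested.

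For the 3 members with the highest mean level, the genes with the most similar profile were sought among 111 candidates of the pathway lists, by the root-mean-square distance of centred log2(FPKM + 0.5) values over the 6 libraries. Nearest to *Socs3* were *Pim1*, a kinase gene that STAT3 and STAT5 induce (distance 0.0892), *Lif* (0.15) and *Irf1* (0.168). *Pim1* was at 44.9 ± 6.93 FPKM in WT and 13.0 ± 0.547 FPKM in KO, and *Lif* at 14.4 ± 1.15 and 4.63 ± 0.616 FPKM. Nearest to *Socs5* were *Pias2* (0.0836), *Csf1r* (0.0889) and *Rela* (0.0947). *Socs4* was nearest to *Bcl6* (0.0579), *Ifnar2* (0.0586) and *Vav1* (0.0604), which like *Socs4* did not pass the test. The distance uses the same 6 libraries as the test, so near genes share a member's difference between the groups by construction. Shared regulation was not tested.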

How the data were processed

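Per the file headers and the methods, the authors deposited 1 table of FPKM values for 6 libraries. The submitters' processing notes name fastp 0.17.1, HISAT2 2.1.0, R 3.4.3 and DESeq2 1.18.1, while the genome build, annotation and quantifier are not given in the sources used here. The labels and the methods name different extraction reagents, library kits and sequencers. All sample columns were used. Gene positions came from GENCODE M21 (GRCm38), which matched 55154 of 55335 identifiers (99.7%). Depth was implied from FPKM steps, of which 39.9% to 43.5% lay within 0.1 of a whole multiple, so reads were not recovered and no count test was run. A pseudocount of 0.5 FPKM was added before taking log2. The linear model of limma 3.58.1 (R 4.3.3, trended eBayes, two-sided) then covered the 13367 genes whose mean reached 0.5 FPKM, and p-values were adjusted over all of them by Benjamini-Hochberg, at 0.05. limma replaced the count test of the methods because the table holds no counts. The procedure was tested on simulated data. Ratios used exact permutation tests (scipy 1.17.1). Text names all 8 members, *Cd177*, the JAKs and STATs, per list up to 3 genes called in each direction with the largest log2 difference and a mean of at least 1 FPKM, and the 3 nearest profiles of the 3 most abundant members. *Cd14*, *Fcgr1*, *Lyz2*, *Elob*, *Eloc*, *Cul5*, *Ifnb1* and *Ifng* were named outside this rule, after their values were seen. Some genes that the rule names are not reported here. Members and lists were chosen with earlier results of these data known. Alternatives were other pseudocounts, filters, scalings, robust eBayes, a replicate term, each library left out and the threshold of the methods.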

Additional observations from a re-analysis of the deposited data

How the results depend on the processing

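*Socs1*, *Socs3* and the lower direction of *Cish* and *Socs2* held under every alternative in which each was tested. Leaving out 1 library at a time, the log2 difference ran from -0.65 to -0.48 for *Socs2*, from -0.0040 to 0.045 for *Socs4*, from 0.061 to 0.81 for *Socs6* and from -0.40 to -0.016 for *Socs7*. *Socs2* did not pass with no filter (-0.55) or without both libraries numbered 2 (-0.49), where *Cish* also missed (-0.76). *Socs4* turned to -0.094 when upper quartiles were matched, -0.18 with median-of-ratios scaling, -0.15 with quantile normalization and -0.014 without both libraries numbered 3, where *Socs7* passed (-0.34). Leaving out both libraries of a number was chosen after seeing the data. The number of members that fell was 1 with a filter at a mean of 5 FPKM, which removed *Cish*, *Socs1*, *Socs2* and others from the test, and 2 both without the libraries numbered 2 and by the threshold of the methods with the fold taken on FPKM + 0.5, which *Cish* missed. With median-of-ratios scaling 3 JAK or STAT genes rose, and 1 ligase and 2 docking genes fell. Of all 13367 genes tested, 2156 rose and 2215 fell under that scaling. Leaving out 1 library at a time, 0 to 1 ligase genes fell, 0 to 2 rose, and 0 to 1 docking genes fell. The *Socs1* to *Socs3* log2 difference was -1.18 with FPKM + 0.1. Deviations of same-numbered WT and KO libraries correlated at 0.116, 0.036 and 0.264, so the numbers were not taken to pair the libraries. With the replicate number as a block, *Socs6* passed (0.43, limma adjusted p = 0.0226), so that 1 member rose, and no other member's call changed. The cause of these changes was not tested. Depth is known only as implied, which limits the low members most.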

Other observations

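Of 13 genes for docking partners and substrates of SOCS1, SOCS3, SOCS6 and SOCS7, 12 were tested. As deposited, 3 rose and 0 fell (limma, Benjamini-Hochberg adjusted p under 0.05), beside 27.1% and 10.5% of all genes tested. At an unadjusted limma p under 0.05, 1 fell. With median-of-ratios scaling 2 rose and 2 fell, beside 2156 and 2215 of all 13367 genes tested. The median log2 difference as deposited was 0.16, against 0.19 for all genes tested. *Irs1*, an insulin receptor substrate that SOCS proteins can target for degradation, rose from 0.845 ± 0.201 FPKM in WT to 3.46 ± 0.306 FPKM in KO. *Map3k5*, the stress kinase ASK1, rose from 1.96 ± 0.431 to 4.47 ± 0.244 FPKM. *Nck1*, an adaptor that binds SOCS7, rose from 3.99 ± 0.462 to 5.54 ± 0.394 FPKM, and did not pass after median-of-ratios scaling (limma adjusted p = 0.164).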
